A study of Mus musculus with 15 samples.

Results

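The ETS transcription factors that endothelial cells are known to use were followed in cultured mouse lymphatic endothelial cells (LECs) under angiotensin II (Ang II). All probe sets whose single annotated gene symbol was Ets1, Ets2, Erg, Fli1, Elk1, Elk3, Elk4, Etv4, Etv5 or Etv6 were taken, and each of these 10 genes had 1 probe set, which gave 10 of the 22206 probe sets on the array. Of all probe sets, 19572 carried 1 symbol and together covered 19505 genes.
ETS factors share a DNA-binding domain that reads a GGAA core, and in blood and lymphatic endothelium they bind the enhancers and promoters of many genes that define the cell type. Erg and Fli1 maintain endothelial identity, Ets1 and Ets2 are activated by ERK phosphorylation, and the ternary complex factors Elk1, Elk3 and Elk4 bind serum response elements together with SRF. Etv4 and Etv5 belong to the PEA3 subfamily, whose genes are induced by FGF and ERK signaling, and Etv6 is a repressor.
The arrays came from purchased mouse LECs, which the labels call a cell line and the study primary cells, and the question was which genes Ang II, the effector peptide of the renin-angiotensin system, alters in these cells. There were 5 arrays of saline-treated control cells, 5 of cells given 500 nM Ang II for 12 h and 5 of cells given 500 nM Ang II for 24 h. The control cells carry no stated harvest time, so Ang II and time in culture cannot be told apart. The labels give the dose as 500 nM, whereas the methods also state a lower concentration. No source says whether the numbered replicates were separate cultures, so the p-values cover the spread among these 15 samples, and that spread may be technical. The array medians lay between 4.80 and 4.84 on the log2 scale. A pair of arrays, Ang II 24 h replicate 3 and control replicate 3, lay apart from the rest, with mean correlations to the other arrays of 0.962 and 0.957 across probe sets, against 0.966 to 0.969 for the other arrays, and values without both are given where a result rests on them. The number of arrays limits the precision.

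The level of a probe set depends on its probes, so levels were read only against a mark of low signal. This mark was 6.26 on the log2 scale, the 95th percentile of 487 probe sets of families that most tissues do not use (chemosensory receptors of the vomeronasal, taste and trace amine kinds, defensins and keratin-associated proteins). It lay below 14.5% of all probe sets, and it is no border between expressed and silent genes: 22 of 59 probe sets of ribosomal proteins lay under it. Averaged over the 15 arrays, Ets1, Fli1 and Etv5 lay above the mark, Fli1 at 6.33 close to it, and the other 7 below. Erg, at 3.86, and Elk3, at 3.65, were the farthest below it. The markers of the labelled cell type were mostly low as well. None of 7 pan-endothelial probe sets reached the mark (Pecam1 3.73, Cdh5 4.54, Kdr 4.35, Tek 3.70, Tie1 5.61, Emcn 4.51 and Esam 5.20), and of 8 lymphatic ones only Ccl21a did (6.43), with Prox1 at 5.09, Lyve1 at 4.32, Pdpn at 5.34 and Flt4 at 4.62. Among markers of other cells, 2 of 4 epithelial probe sets lay above the mark (Krt8 7.96 and Krt18 6.33, against Epcam 3.68 and Cdh1 4.86) and 1 of 4 leukocyte ones (Ptprc 7.03, against Adgre1 5.17, Itgam 4.23 and Csf1r 4.12), while none of 6 fibroblast and 4 smooth muscle probe sets did. On these arrays the defining endothelial markers were thus not above low signal, and the other assays of lymphatic markers in these cells that the study describes (staining, qPCR and immunoblotting) were not analysed here.

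The windows that the RefSeq table gives before the annotated starts of Elk3, Elk4 and Etv5 (build GRCm38.p6, 250 bases each, 5′ to 3′ on the gene's strand) show what the GGAA core looks like around these genes. Elk3 and Etv5 are shown because their levels varied together from array to array, and Elk4 because it had the smallest p at 12 h after Ets1. Capitals mark GGAA or its reverse complement TTCC.
Elk3, chr10:93311160-93311409, minus strand: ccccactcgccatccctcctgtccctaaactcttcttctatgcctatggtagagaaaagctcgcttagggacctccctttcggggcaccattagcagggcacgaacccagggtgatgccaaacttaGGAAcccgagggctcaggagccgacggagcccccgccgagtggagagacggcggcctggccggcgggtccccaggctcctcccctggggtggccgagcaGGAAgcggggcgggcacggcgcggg
Elk4, chr1:132007370-132007619, plus strand: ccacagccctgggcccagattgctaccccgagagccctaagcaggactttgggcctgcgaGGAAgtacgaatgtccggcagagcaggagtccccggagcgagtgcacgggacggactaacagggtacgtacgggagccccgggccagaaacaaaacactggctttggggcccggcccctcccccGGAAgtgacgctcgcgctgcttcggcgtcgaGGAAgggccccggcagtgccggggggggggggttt
Etv5, chr16:22439571-22439820, minus strand: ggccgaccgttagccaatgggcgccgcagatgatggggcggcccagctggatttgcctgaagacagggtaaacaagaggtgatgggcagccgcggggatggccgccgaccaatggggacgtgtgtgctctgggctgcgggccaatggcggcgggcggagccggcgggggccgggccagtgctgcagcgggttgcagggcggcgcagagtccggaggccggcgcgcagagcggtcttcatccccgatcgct
The Elk3 window held 2 matches, the Elk4 window shown 3 and the Etv5 window shown 0. A second Etv5 window held 4, and the other Elk4 windows held 2 and 4. The Elk4 window shown reaches past the first base of the gene in the gene table (132007577). The core is common, since GGAA on either strand lay in 93.4% of all 32851 windows of this length and in 10 of the 12 windows that the table gives for 7 of the 10 genes. The longer motif CCGGAAGT, searched on both strands and overlapping GGAA, was in 2.88% of all windows and in 1 of the 12, the Elk4 window shown. A match is only this run of letters in this window.

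None of the 10 ETS genes passed the test at either time. With limma on the log2 values and Benjamini-Hochberg adjustment over all probe sets, 0 of 10 had an adjusted p under 0.05 at 12 h, where 0% of all probe sets did, and 0 of 10 at 24 h, where 0.018% did. Ang II 24 h against Ang II 12 h gave 0 of 10 against 0.0225% of all probe sets, and the F test over the 3 groups gave 0 of 10 against 0.0225%. At an unadjusted p under 0.05, limma marked 2 of 10 at 12 h (Ets1 and Elk4) against 4.91% of all probe sets, 1 of 10 at 24 h (Ets1) against 7.1%, 0 of 10 between the Ang II times against 5.99%, and 1 of 10 in the F test (Ets1) against 6.25%. The Ang II and control arrays did not overlap for 0 of 10 genes at 12 h, against 0.689% of all probe sets, and for 1 of 10 at 24 h (Ets1), against 1.07%. At 12 h, 3 of the 10 means were higher than in control and 7 lower, with a median log2 fold change of -0.09 (0 over all probe sets). At 24 h, 4 were higher and 6 lower, with a median of -0.025 (0.004 over all probe sets). Both sets of differences share the same 5 control arrays.

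**Figure D1:**
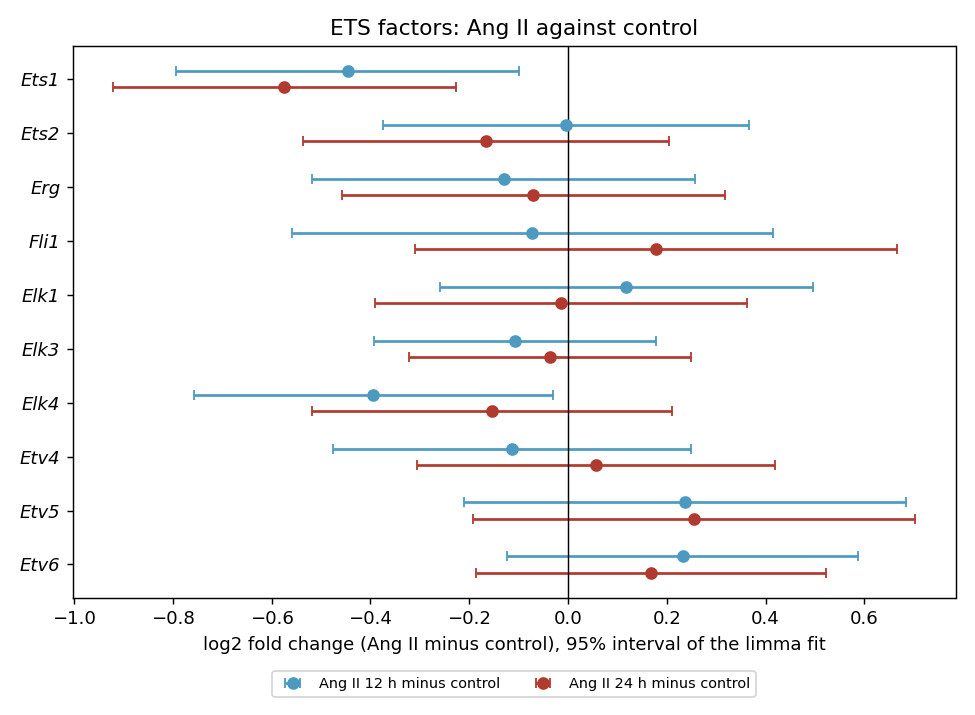
Log2 fold change of each ETS gene, Ang II minus control, with the 95% interval of the limma fit (5 arrays per group). The intervals of Ets1 at both times and of Elk4 at 12 h lie below 0, before any adjustment for the number of probe sets, and all other intervals include 0.

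Ets1, the founding member of the family and an activator of angiogenic genes, had the largest difference of the 10. Its log2 levels in the control arrays were 9.56, 9.0, 9.73, 9.26 and 9.10. The 12 h arrays had 9.24, 8.49, 8.97, 8.76 and 8.96, and the 24 h arrays 8.61, 8.65, 8.67, 8.89 and 8.96. All 5 arrays at 24 h were below all 5 control arrays, by a margin of 8.96 against 9.0 between the nearest, and 4 of 5 at 12 h were below every control array. The means were 9.33 ± 0.31 in control, 8.88 ± 0.28 at 12 h and 8.76 ± 0.16 at 24 h (SD, n = 5 each). The log2 fold change at 24 h was -0.57 (standard error 0.17, 95% interval -0.92 to -0.23), a level 0.672 times that of control, with a limma adjusted p = 0.519. Its unadjusted p ranked 105 among the 22206. At 12 h the log2 fold change was -0.45 (standard error 0.17, 95% interval -0.79 to -0.10, limma adjusted p = 0.966). The difference between 24 h and 12 h was -0.13 with an interval of -0.48 to 0.22, so that a further difference between the times was not resolved by 5 arrays each. Ets1 is one of the genes that the study singled out on these arrays, and its direction here is therefore not independent evidence. The study counts it as differentially expressed on the arrays, at a stated P and FDR under 0.05, whereas it did not pass adjustment here. The values themselves are alike. Here Ets1 was 1.49-fold lower at 24 h with an unadjusted p = 0.0064 by the limma F test, and the study tabulates a decrease and a P of these sizes. The study also reports lower Ets1 by qPCR under Ang II, reversed by losartan, and those assays were not analysed here.

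**Figure D2:**
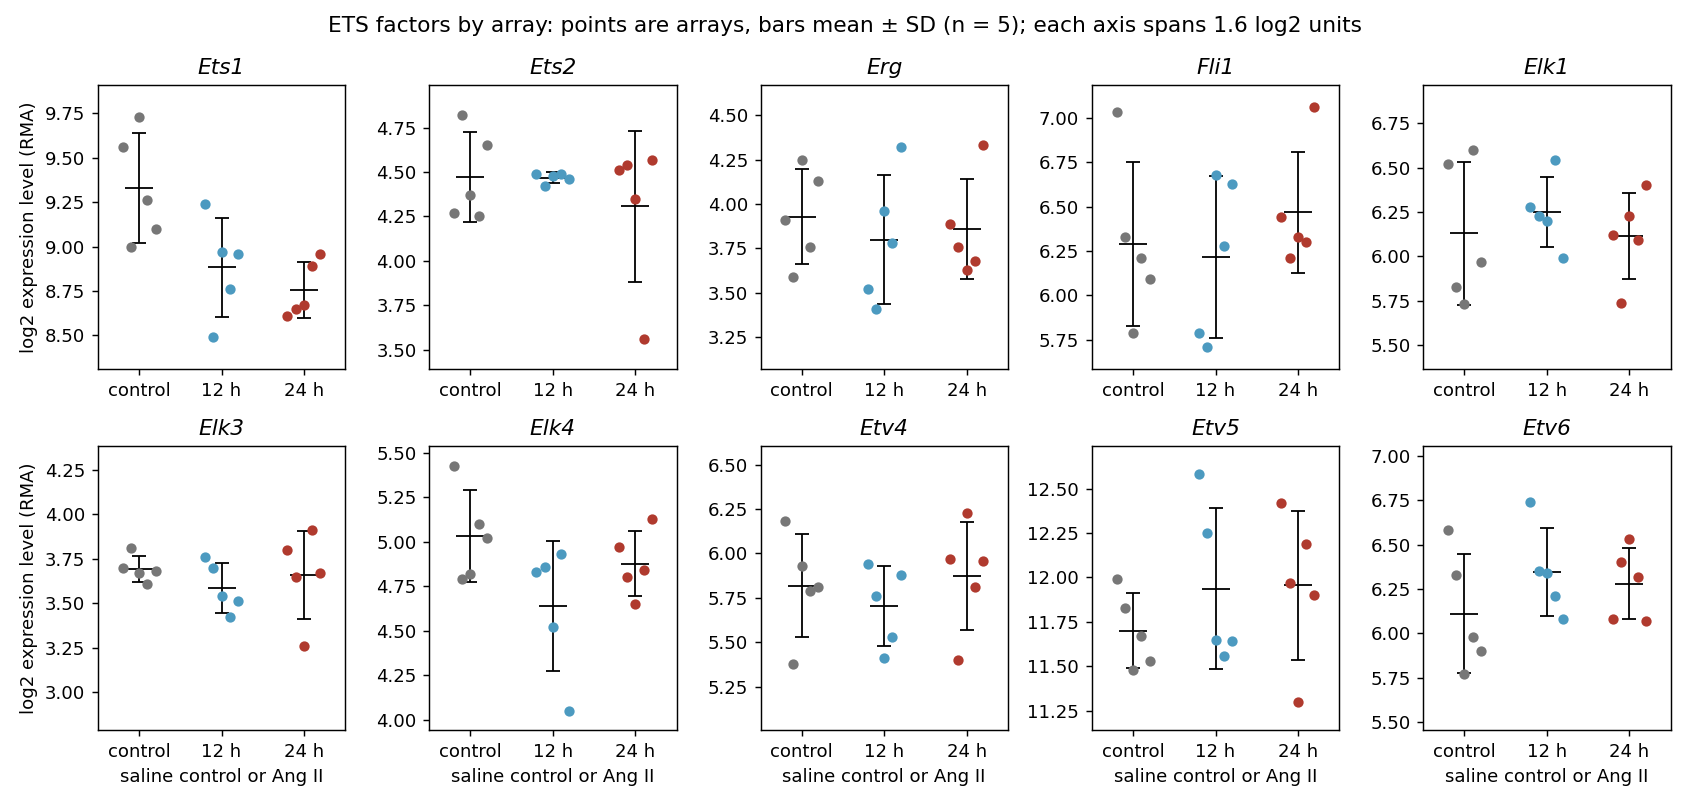
Log2 expression level (RMA) of each ETS gene on each of the 15 arrays, by group (control, Ang II 12 h, Ang II 24 h), with the mean and SD of 5 arrays as bars. Every panel spans the same 1.6 log2 units, and only for Ets1 at 24 h do the Ang II arrays lie wholly on one side of the control arrays.

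When any single array was left out, the Ets1 difference at 24 h lay between -0.66 and -0.47, and its unadjusted p stayed under 0.05 each time. The smallest size came without control replicate 3, the array with the highest Ets1 level. At 12 h the range was -0.54 to -0.35, and the unadjusted p exceeded 0.05 without Ang II 12 h replicate 2. Without both arrays that stood apart, a setting chosen after the values were seen, the differences were -0.45 at 24 h (standard error 0.18, limma adjusted p = 0.867) and -0.35 at 12 h (standard error 0.17), where the unadjusted p exceeded 0.05.

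**Figure D3:**
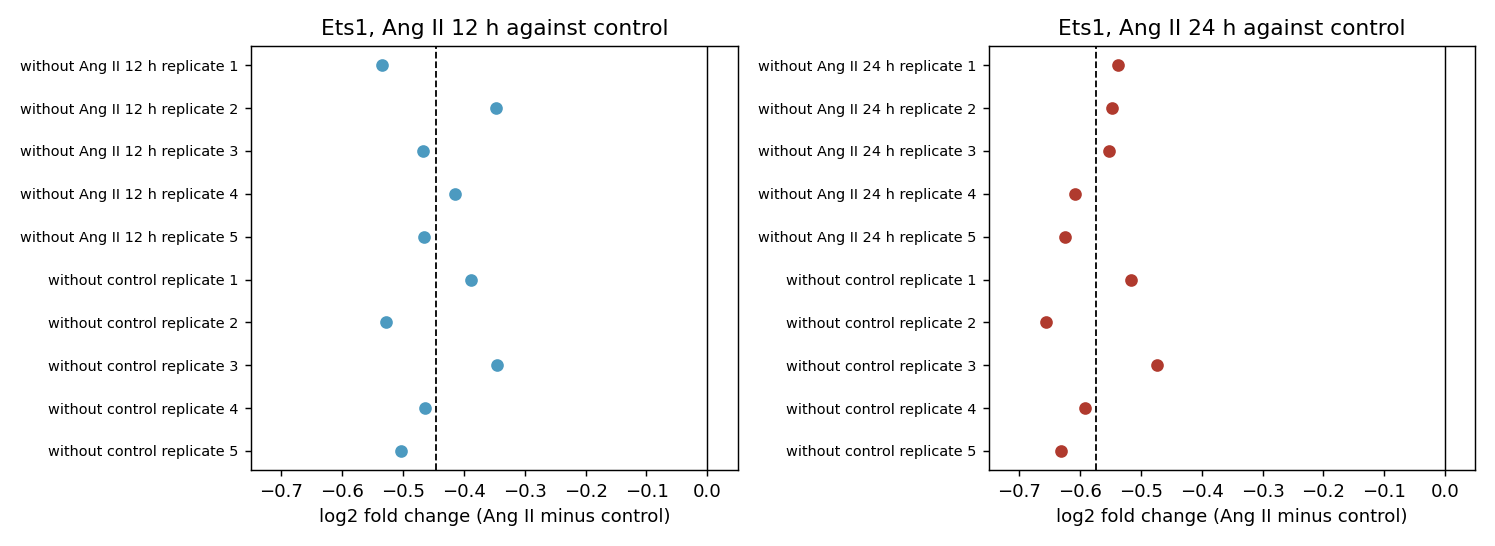
Log2 fold change of Ets1 at 12 h and 24 h (Ang II minus control) when each Ang II or control array in turn is left out; the dashed line is the value from all arrays. All values lie below 0, between -0.54 and -0.35 at 12 h and between -0.66 and -0.47 at 24 h.

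Over the 15 arrays, the genes whose levels followed Ets1 most closely were Rab1a, a small GTPase of transport from the endoplasmic reticulum to the Golgi (r = 0.902, rho = 0.859), and Ccbe1, a secreted factor needed for VEGF-C processing and lymphatic development (r = 0.845, rho = 0.850). Dnttip2 (r = 0.840), Anp32a (r = 0.813) and Cenpm (r = 0.808) came next, of 2850 probe sets with 1 symbol above the low-signal mark. These correlations describe arrays that include the group differences. Rab1a had log2 means of 14.58 in control, 14.34 at 12 h and 14.21 at 24 h, and Ccbe1 7.41, 7.07 and 7.04 in the same order, and neither passed adjustment at 24 h (limma adjusted p = 0.598 and 0.659). Ets2, the closest relative of Ets1, had differences within its spread. Its log2 level was 4.47 ± 0.25 in control, 4.47 ± 0.03 at 12 h and 4.31 ± 0.43 at 24 h (SD, n = 5 each). The low mean and wide spread at 24 h came with 1 array, replicate 4 at 3.56, while the other 4 arrays lay between 4.35 and 4.57, inside the control range of 4.25 to 4.82. Without that array the log2 fold change of Ets2 was 0.02 instead of -0.17.

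Erg and Fli1, the pair that maintains endothelial identity, had differences within the spread between replicates. Fli1 had 7.03, 6.33, 5.79, 6.21 and 6.09 in control, 5.79, 5.71, 6.68, 6.28 and 6.63 at 12 h, and 6.44, 6.21, 6.33, 6.30 and 7.06 at 24 h. The 3 groups overlapped widely, with a single high array in control and at 24 h. The log2 fold change of Fli1 was -0.07 at 12 h (95% interval -0.56 to 0.42) and 0.18 at 24 h (-0.31 to 0.67), so that changes of up to 1.59-fold upward at 24 h remain within the interval. Erg had log2 levels of 3.59 to 4.25 in control, 3.41 to 4.32 at 12 h and 3.63 to 4.33 at 24 h, with differences of -0.13 (-0.52 to 0.26) at 12 h and -0.07 (-0.46 to 0.32) at 24 h. All 15 Erg values lay below the low-signal mark. In the GRCm38.p6 gene table Ets1 and Fli1 are neighbours on chromosome 9, and Erg and Ets2 are neighbours on chromosome 16. At 24 h the first pair had differences of -0.57 (Ets1) and 0.18 (Fli1), and the second pair -0.07 (Erg) and -0.17 (Ets2).

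Of the ternary complex factors, Elk4 had the second smallest p of the 10 genes at 12 h. Its log2 levels were 5.43, 4.79, 4.82, 5.10 and 5.02 in control, 4.83, 4.86, 4.52, 4.93 and 4.05 at 12 h, and 4.97, 4.80, 4.65, 4.84 and 5.13 at 24 h. The 12 h and control arrays overlapped, and replicate 5 at 12 h was the lowest of the 15. The log2 fold change at 12 h was -0.39 (standard error 0.17, 95% interval -0.76 to -0.03, limma adjusted p = 0.966), and at 24 h it was -0.15 (-0.52 to 0.21). It depended on single arrays: without Ang II 12 h replicate 5 the difference was -0.25, and without control replicate 1 it was -0.29, and the unadjusted p then exceeded 0.05. It also did so without Ang II 12 h replicate 3, control replicate 4 or control replicate 5, in the fit of only the 2 groups and by Duncan's test. Elk1, on the X chromosome, ranged over 5.73 to 6.60 in control, 5.99 to 6.54 at 12 h and 5.74 to 6.40 at 24 h, with log2 fold changes of 0.12 at 12 h (-0.26 to 0.50) and -0.01 at 24 h (-0.39 to 0.36). Elk3, which represses its targets until it is phosphorylated, had the smallest spread in control of the 10 genes (3.69 ± 0.07, SD, n = 5) and lay at 3.59 ± 0.14 at 12 h and 3.66 ± 0.25 at 24 h. Its differences were -0.11 (-0.39 to 0.18) at 12 h and -0.04 (-0.32 to 0.25) at 24 h.

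Of the PEA3 subfamily, Etv5 lay far above the low-signal mark on every array. Its log2 levels were 11.99, 11.83, 11.48, 11.67 and 11.53 in control, 12.58, 12.25, 11.65, 11.56 and 11.64 at 12 h, and 12.42, 11.97, 11.30, 12.19 and 11.90 at 24 h. The highest Ang II arrays lay above every control array and the lowest within or below the control range. The mean was 0.24 higher at 12 h (95% interval -0.21 to 0.68) and 0.26 higher at 24 h (-0.19 to 0.70; limma adjusted p = 0.862), within the spread between replicates. Single arrays moved these values: at 12 h the difference was 0.075 without Ang II 12 h replicate 1, and at 24 h it was 0.14 without Ang II 24 h replicate 1 and 0.42 without Ang II 24 h replicate 3. Etv4 lay between 5.38 and 6.18 in control, 5.41 and 5.94 at 12 h and 5.40 and 6.23 at 24 h, with differences of -0.11 at 12 h (-0.48 to 0.25) and 0.06 (-0.31 to 0.42) at 24 h. For the repressor Etv6, the levels were 6.58, 6.33, 5.77, 5.98 and 5.90 in control, 6.74, 6.35, 6.34, 6.21 and 6.08 at 12 h, and 6.08, 6.40, 6.53, 6.32 and 6.07 at 24 h. These groups overlapped, and the differences of Etv6 were 0.23 (-0.12 to 0.59, limma adjusted p = 0.967) at 12 h and 0.17 (-0.19 to 0.52) at 24 h.

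Between the Ang II times, no ETS gene had an unadjusted p under 0.05, and the largest difference was that of Fli1 (0.25, 24 h minus 12 h, 95% interval -0.24 to 0.74), followed by Elk4 (0.24, -0.12 to 0.60). Elk3 and Etv5 varied together from array to array. With the group means taken out, their correlation over the 15 arrays was r = 0.861, the highest of the 45 pairs of the 10 genes, whose median was 0.08 and whose lowest was -0.65 (Erg and Etv6). Before the group means were taken out it was 0.714 (rho = 0.710), and without both arrays that stood apart it was 0.680, and 0.815 with the group means taken out. The arrays are the same libraries on both axes and Elk3 lies below the low-signal mark, so this is a description of these arrays.

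Among the other ETS genes on the array, none passed adjustment. Of 15 probe sets, 0 had a limma adjusted p under 0.05 at 12 h or 24 h. Over all probe sets, 0% and 0.018% did. At an unadjusted 0.05 there were 1 at 12 h and 0 at 24 h, against 4.91% and 7.1% of all probe sets. There were 9 means higher and 6 lower at 24 h, with a median log2 fold change of 0.04. Elf1 was the only one above the low-signal mark (7.88 at 24 h, 7.95 in control). Those with the smallest p at 24 h were Elf4 (-0.30), Etv3 (-0.29), Spib (0.21) and Elf2 (0.25), none under an unadjusted 0.05, and Elf2 had 0.41 at 12 h (limma adjusted p = 0.966).
The partners of ETS factors, which are SRF, its myocardin-related cofactors, GABP subunits, histone acetyltransferases and ERK pathway kinases, gave 0 of 10 probe sets past adjustment at either time. The shares over all probe sets were 0% at 12 h and 0.018% at 24 h. At an unadjusted p under 0.05, limma marked 1 of 10 at 12 h (Ep300) against 4.91% of all probe sets. At 24 h it marked 3 of 10 (Ep300, Gabpb1 and Mrtfa, all lower) against 7.1%. These 3 genes lay below the low-signal mark. At 24 h, 5 of 10 means were higher and 5 lower (median 0.01). The acetyltransferase Ep300 had log2 means of 5.20 ± 0.29 at 24 h and 5.64 ± 0.29 in control (SD, n = 5 each), a difference of -0.44 (limma adjusted p = 0.592). Gabpb1, the partner subunit of the ETS protein Gabpa, differed by -0.42, Mrtfa by -0.35 and Mrtfb by 0.31, none past adjustment.

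A list of genes downstream of ERK and SRF, made of 12 probe sets of immediate early genes and 8 of feedback inhibitors of ERK and FGF signaling, held the 1 probe set in these lists that passed. Egr3, an early response transcription factor, fell by 1.20 on the log2 scale at 24 h on 1 of its 3 probe sets, with 6.51 ± 0.38 at 24 h and 7.71 ± 0.25 in control (SD, n = 5 each, limma adjusted p = 0.0118). Its other probe sets had differences of -0.25 and -0.008, so the probe sets of this gene disagree. The probe set that passed is one whose identifier marks it as unmapped, and the mapped one gave -0.25. Of all 20 probe sets of the list, 1 was lower and 0 higher past adjustment at 24 h, where 0.018% of all probe sets were called. At 24 h 16 means were lower and 4 higher (median -0.09, against 0.004 over all probe sets, of which 49.0% were lower), and at 12 h 12 were lower and 8 higher. Egr2 (-0.55, limma adjusted p = 0.519) and the AP-1 subunit Fosb (-0.53, adjusted p = 0.491) had lower means without passing. The survival factor Mcl1 (0.31, limma adjusted p = 0.685) and the early gene Egr1 (0.42, adjusted p = 0.685) had higher ones.
Of 25 probe sets of endothelial genes known as ETS targets, 0 passed adjustment at 12 h, where 0% of all probe sets did. At 24 h 0 passed, where 0.018% of all probe sets did. At an unadjusted p under 0.05, limma marked 0 at 12 h, against 4.91% of all probe sets. At 24 h it marked 1 higher (Kdr) and 1 lower (Vwf), against 7.1%. None lay above the low-signal mark. At 12 h 17 means were higher and 7 lower (median 0.07), and at 24 h 14 were higher and 11 lower (median 0.04). Kdr, a VEGF receptor, had 4.69 ± 0.39 at 24 h and 4.06 ± 0.28 in control (SD, n = 5 each), a difference of 0.63 (limma adjusted p = 0.553). The study also singled out Kdr and reports a higher level by qPCR under Ang II, which was not analysed here. Vwf had -0.36, Flt1 0.31 and Sox18 0.28, none past adjustment. The 7 pan-endothelial markers, of which Kdr is one, had 6 of 7 means higher at 24 h, all under the low-signal mark. Their summed log2 level was 31.55 to 33.72 over the 24 h arrays and 30.55 to 32.02 over the control arrays. Their part in the Ets1 values was not tested. Of the 8 lymphatic markers, 5 means were higher and 3 lower at 24 h. Their sums were 36.54 to 38.07 over the 24 h arrays and 36.41 to 37.84 over the control arrays. Of the 4 leukocyte markers, 2 means were higher and 2 lower at 24 h, with a summed level of 20.11 to 21.05 over the 24 h arrays and 19.93 to 20.83 over the control arrays. Ptprc had 7.01 to 7.58 at 24 h and 6.52 to 6.92 in control (difference 0.51, limma adjusted p = 0.553). These ranges did not overlap, which held for 1.07% of all probe sets at 24 h. Adgre1 differed by -0.15, Itgam by -0.05 and Csf1r by 0.08. Of the 4 epithelial markers, 2 were higher and 2 lower at 24 h, with sums of 20.92 to 23.36 over the 24 h arrays and 22.29 to 24.03 over the control arrays. Krt8 differed by -0.38 at 24 h, and Epcam by -0.49 at 12 h and -0.36 at 24 h, none past adjustment. The part of these markers in the ETS values was not tested either. Of the Ang II receptors, none lay above the mark, and Agtr1a had 0.31 at 12 h and -0.29 at 24 h, Agtr1b -0.26 and -0.46, and Agtr2 -0.03 and 0.03, none past adjustment. For Agtr1a the difference between 24 h and 12 h was -0.60 (limma adjusted p = 0.787).

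**Figure D4:**
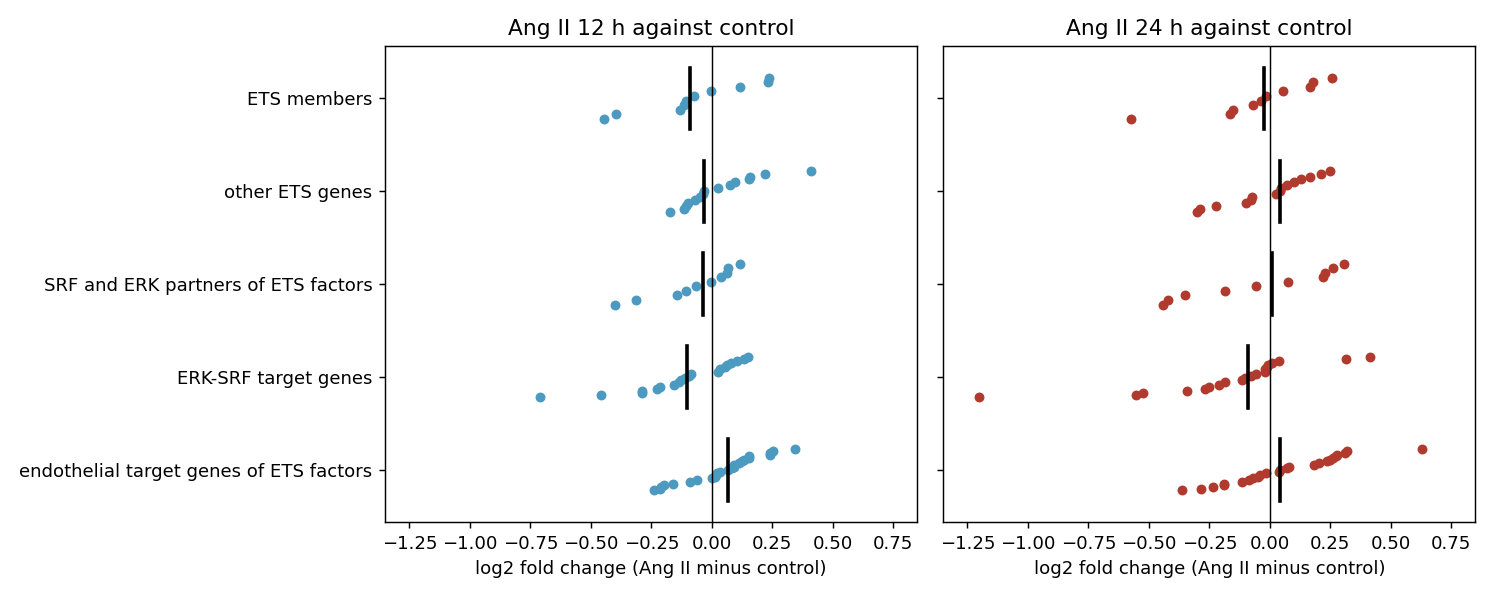
Log2 fold change (Ang II minus control) of each probe set at 12 h and 24 h in the ETS genes and 4 lists around them; a point is a probe set and the black bar is the median of the list. The medians lie between -0.10 and 0.07, and the point farthest to the left at 24 h is the Egr3 probe set at -1.20.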

How the data were processed

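Total RNA of 15 samples was hybridised to Affymetrix arrays, 5 each for control, Ang II 12 h and Ang II 24 h, grouped by the labels. The authors read the arrays with GCOS (no version stated), analysed them in the Transcriptome Analysis Console and normalised them by RMA. What they deposited is a table of 22206 probe sets in log2 units with 2 decimals. The probe set identifiers are not of the array design that the methods name, no source used here gives the genome build, and symbols came from the platform annotation. Summaries of dim probe sets tend to understate differences.
Values were fitted as deposited with limma 3.58.1 in R 4.3.3 (lmFit, eBayes, a common variance over the 3 groups, prior degrees of freedom 8.03), with Benjamini-Hochberg adjustment over all probe sets and a threshold of 0.05. The script was tested on simulated data. The members and lists were chosen with earlier results of these data known. All members were named, and of each other list up to 4 genes with the smallest p at 24 h plus any past adjustment. Elf1, the marker genes and the angiotensin receptors are given as levels or differences. Elf2 at 12 h and Egr1 at 24 h were named after their values were seen. The Epcam difference at 12 h, the Ptprc ranges and the Agtr1a difference between the Ang II times also lie outside the rule. The genes most like Ets1 were the 5 with the highest Pearson r. The alternatives were median centring, quantile normalisation, array weights, a robust fit with an intensity trend, a fit without moderation, the replicate number as a block, Duncan's multiple range test (named in the methods), only the groups compared, only probe sets above the median level, and leaving out each array. The setting without control replicate 3 and Ang II 24 h replicate 3 together was chosen after seeing the data.
Same-numbered arrays of different groups had correlations of -0.04 to 0.05 between their deviations from the group means. Differently numbered arrays had -0.05 to 0.06. Such correlations over all probe sets cannot decide whether the numbers mark pairs. Of the lists, Fev, Nrp1, Egfl7, Pdgfra and Cd68 were not found as single symbols, and some partner genes are not reported here. Sequences came from RefSeq tables (GRCm38.p6), and the windows were cut at the annotated start.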

Additional observations from a re-analysis of the deposited data

Results flagged for a closer look

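In groups of 5 arrays, a value was marked where its gap to the nearest other exceeded 0.71 of the range of the group. Of 30 groups looked at, 2 were marked, where chance marks about 1 in 20, or 1.5.
Ets2 had a log2 level of 3.56 on Ang II 24 h replicate 4, and the nearest other array of that group had 4.35 (gap over range 0.782). Fli1 had 7.06 on Ang II 24 h replicate 5, and the nearest other had 6.44 (gap over range 0.729). The control group had 1 Fli1 value as high, 7.03 on replicate 1.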

How the results depend on the processing

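No ETS gene passed adjustment under any alternative, and the lowest adjusted p over all of them was 0.331 (Ets1 at 24 h without control replicate 2). Of 20 differences from control, 13 kept their sign in all settings, Ets1 and Elk4 at both times among them. When single arrays were left out, the sign turned for Fli1 (-0.197 to 0.113) and Ets2 (-0.0595 to 0.083) at 12 h, and for Ets2 (-0.232 to 0.0205), Elk1 (-0.114 to 0.1035), Elk3 (-0.099 to 0.0635), Etv4 (-0.0535 to 0.1745) and Erg (-0.188 to 0.0105) at 24 h. Without both arrays that stood apart, Erg had 0.0675, Elk3 0.0575 and Etv4 -0.005 at 24 h. The cause was not tested. Over the other normalisations and fits of all arrays, Ets1 at 24 h lay between -0.59 and -0.51. With the replicate block it was -0.57 (limma adjusted p = 0.575), and the block changed no call among the ETS genes. Over all probe sets, 4 were called at 24 h, 3 with the replicate block and 2 without both arrays that stood apart. Signal limits Erg, Elk3, Elk4 and Ets2, whose means lie well below the low-signal mark, and 5 arrays per group leave intervals of about 0.3 to 0.5 on each side.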
